A study of Mus musculus with 2 samples.

Results

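Metallothioneins and iron-handling genes were read as mRNA in immune cells sorted from mouse B16F10-OVA tumours. The group held 8 of the 32285 genes counted, taken by symbol: the metallothioneins Mt1 and Mt2, the haem oxygenase Hmox1, the ferritin subunits Fth1 and Ftl1, the iron exporter Slc40a1, the phagosomal metal transporter Slc11a1 and the transferrin receptor Tfrc. All 8 were found in the gene list and had UMIs in both libraries. The choice used their levels in these same libraries and cell classes, so the differences below are a description and carry no test. B16F10-OVA is a mouse melanoma line that carries ovalbumin as a model antigen. In the UDSP-Hep group, mice with subcutaneous tumours received UDSP-Hep, an agent that the labels name and do not describe, on days 10, 12, 14 and 16. In the PBS group, mice with the same tumours received buffer on the same days. In each group 3 tumours were taken on day 19, CD45+ cells (CD45 marks leukocytes) were sorted, and 1 single-cell library was made, with about 10000 cells loaded. The strain, sex and age of the mice are not given in the sources used here. Cells carry no label of the tumour they came from, so each group is 1 sample, no difference between groups can be tested, and the intervals below cover counting error only.

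Metallothioneins are small, cysteine-rich proteins that bind zinc and copper, and their genes are induced by metals, glucocorticoids and oxidants. Macrophages take iron from haem with haem oxygenase, store it in ferritin shells built of heavy (Fth1) and light (Ftl1) chains, and release it through ferroportin, the product of Slc40a1. Cells that need iron import it with the transferrin receptor. Translation of the ferritin and ferroportin mRNAs and the stability of the Tfrc mRNA depend on a hairpin, the iron-responsive element, which the iron regulatory proteins bind when iron is low. The hairpins are shown because they tie 4 of the 8 genes to 1 regulator and set Tfrc apart from the other carriers by their place in the mRNA. Each is printed as 27 bases of the transcript strand on GRCm38, with the loop letters CAGTGN in capitals.

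The hairpin in the 5′ UTR of Fth1 lies at chr19:9982733-9982759 on the plus strand, that in the 5′ UTR of Ftl1 at chr7:45459780-45459806 on the minus strand, and that in the 5′ UTR of Slc40a1 at chr1:45925466-45925492 on the minus strand. The 4 that the pattern below found in the 3′ UTR of Tfrc lie on the plus strand at chr16:32631220-32631246, chr16:32631599-32631625, chr16:32631664-32631690 and chr16:32631711-32631737. They are lettered a to d here in that order.
Fth1: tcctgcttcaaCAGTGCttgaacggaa
Ftl1: tcttgcttcaaCAGTGTttgaacggaa
Slc40a1: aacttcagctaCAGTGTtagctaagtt
Tfrc a: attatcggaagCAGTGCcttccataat
Tfrc b: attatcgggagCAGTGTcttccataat
Tfrc c: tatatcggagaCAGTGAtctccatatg
Tfrc d: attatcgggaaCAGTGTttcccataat

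The pattern searched was a C, 5 bases, CAGTGN and 5 bases that pair with the first 5, G-T pairs allowed, on the transcript strand alone. It was present in 31 of 20597 genes with an annotated 5′ UTR (0.151%) and in 129 of 20995 genes with an annotated 3′ UTR (0.614%). Mt1, Mt2, Hmox1 and Slc11a1 had no match to these letters in their annotated UTRs. A match is a description of the letters and says nothing here of binding. Hairpins with other letters or pairing would be missed, so the counts per gene may be incomplete.

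After filters and removal of likely doublets, 7194 UDSP-Hep cells with 55827476 UMIs and 6717 PBS cells with 66102473 UMIs remained. The median cell had 5483 UMIs in the UDSP-Hep library and 7874 UMIs in the PBS library. Cells were put into classes by gates on marker lists, and the thresholds were set after the data had been seen. The macrophage gate held 659 UDSP-Hep and 949 PBS cells, the monocyte gate 1176 and 1937, the neutrophil gate 680 and 49, and the T, NK and B cell gates together 2754 and 1651. Cells whose macrophage and monocyte scores were too close to call were kept apart as intermediates (310 UDSP-Hep and 640 PBS cells). A gate is a range of a score and not a type: 192 of the 659 UDSP-Hep macrophages and 313 of the 949 PBS macrophages lay within 0.1 of the limit on the lead over the next class. In macrophages the median score on the macrophage list was 0.592 in UDSP-Hep and 0.563 in PBS cells, against 0.207 and 0.229 on the monocyte list and 0.0352 and 0.0197 on the neutrophil list. The libraries shared 25 cell barcodes.

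Levels are counts per 1000000 UMIs of the class (CPM). A ratio is UDSP-Hep CPM over PBS CPM, and a gene was counted as past the fold at a ratio of at least 1.5 or at most 0.667, given at least 50 UMIs over both libraries. In macrophages 2 of the 8 genes were higher past the fold, Slc40a1 and Fth1, where 10.1% of 10310 genes were, and 3 were lower, Mt1, Mt2 and Hmox1, where 4.48% were. In monocytes none of 7 was higher (8.14% of all genes) and the same 3 were lower (3.37% of all genes). In the intermediates none of 7 was higher (12.9% of all genes) and again Mt1, Mt2 and Hmox1 were lower (4.93% of all genes). In dendritic cells Slc11a1 and Tfrc were higher (7.81% of all genes) and Hmox1 was lower (5.92% of all genes). In neutrophils Slc40a1 and Slc11a1 were higher and Mt1 and Hmox1 lower, where 30.7% and 15.2% of 3888 genes were. In nonclassical monocytes Slc11a1 was higher (11.1% of all genes) and Mt1 lower (3.88% of all genes). Over all lymphocytes Slc11a1 was higher (9.17% of all genes) and Mt1, Mt2 and Hmox1 were lower (7.09% of all genes). The lymphocytes differed in makeup: NK cells, low in Mt1 (21.3 CPM in UDSP-Hep, 27.9 CPM in PBS), were 1395 of the 2754 UDSP-Hep and 421 of the 1651 PBS lymphocytes. Within T cells Mt1 had a ratio of 0.853 and Mt2 one of 0.780, and within NK cells Mt1 had one of 0.765 and Hmox1 one of 1.13, none of them past the fold. The 8 genes were chosen on these contrasts, so nothing is read from their counts. The median log2 ratio was -0.09 over the 8 genes and 0.09 over all genes in macrophages, and -0.29 over 7 of the genes and 0.13 over all genes in monocytes.

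The narrower classes were read in the same way. Over T cells 1 of 7 genes was higher, Slc11a1 (8.49% of all genes), and 1 lower, Hmox1 (5.37%). CD8 T cells had Fth1 and Slc11a1 higher (12.8%) and Hmox1 lower (8.79%), and regulatory T cells had none higher (5.41%) and Hmox1 and Fth1 lower (5.23%). Other CD4 T cells had Fth1 and Tfrc higher (11.4%) and Mt1 and Mt2 lower (4.76%), and other T cells had Mt2 and Tfrc higher (5.77%) and Hmox1 and Ftl1 lower (4.86%). NK cells had Fth1, Slc11a1 and Tfrc higher (6.75%) and none lower (3.65%), and B cells had none higher (10.1%) and Fth1 and Ftl1 lower (7.37%). The tenth of PBS B cells with the most held 71.1% of their Fth1 UMIs and 76.8% of their Ftl1 UMIs. In UDSP-Hep B cells these shares were 43.3% and 41.2%. The median B cell had 18.45 Fth1 UMIs per 10000 in UDSP-Hep and 15.3 in PBS, and 3.954 Ftl1 UMIs in each library. The 3 dendritic subsets differed: Mt1 was higher in cDC1 cells (12%) with none lower (13.4%), Tfrc was higher (6.63%) and Hmox1 lower (3.48%) in cDC2 cells, and Fth1 was higher (13.6%) with none lower (6.5%) in mature dendritic cells. Basophils had Fth1 higher (11.8%) and none lower (7.61%), and plasmacytoid dendritic cells had none of 3 higher (8.32%) or lower (7.78%).

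**Figure D1:**
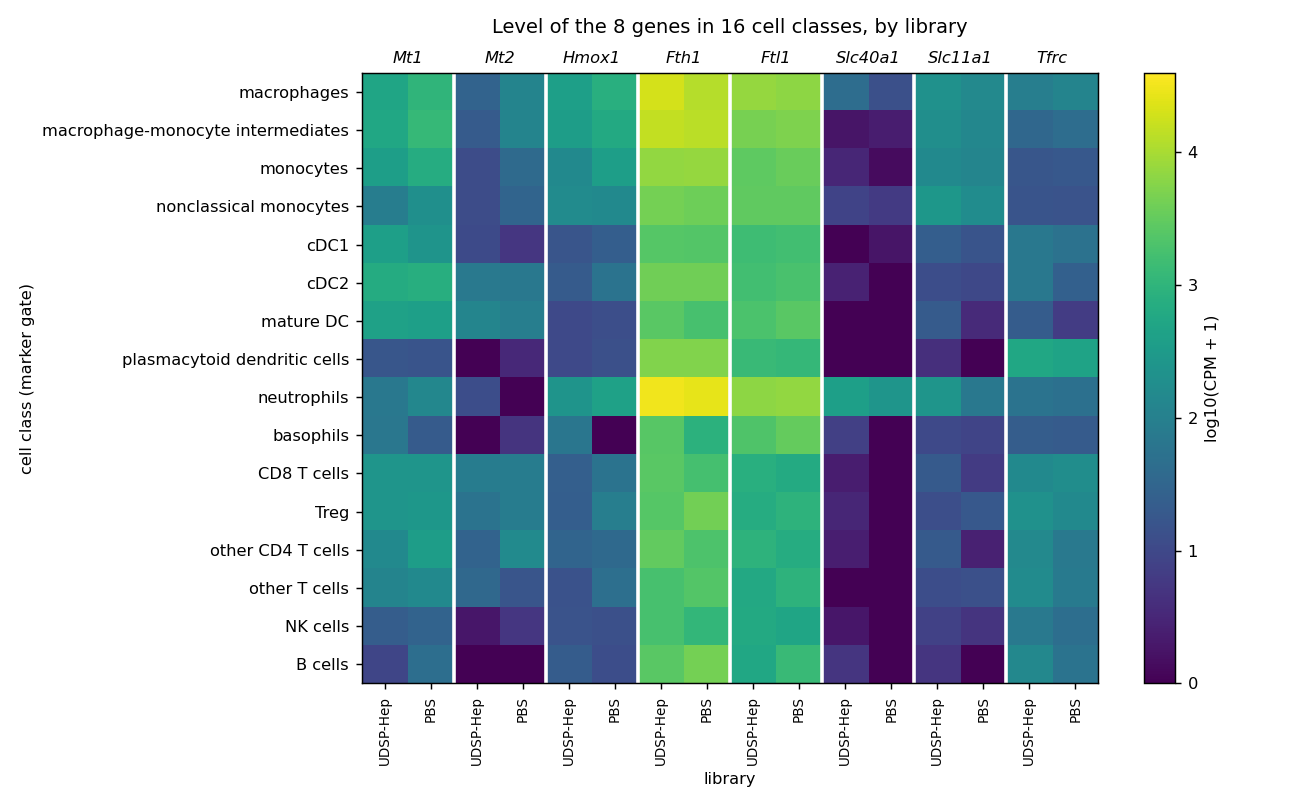
Levels of the 8 genes (columns, UDSP-Hep left of PBS within each gene) in 16 cell classes (rows), coloured by log10(CPM + 1). Slc40a1 stands out in the neutrophil row (397 CPM in UDSP-Hep, 252 CPM in PBS) and Tfrc in the row of plasmacytoid dendritic cells (553.5 CPM in UDSP-Hep, 466 CPM in PBS).

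**Figure D2:**
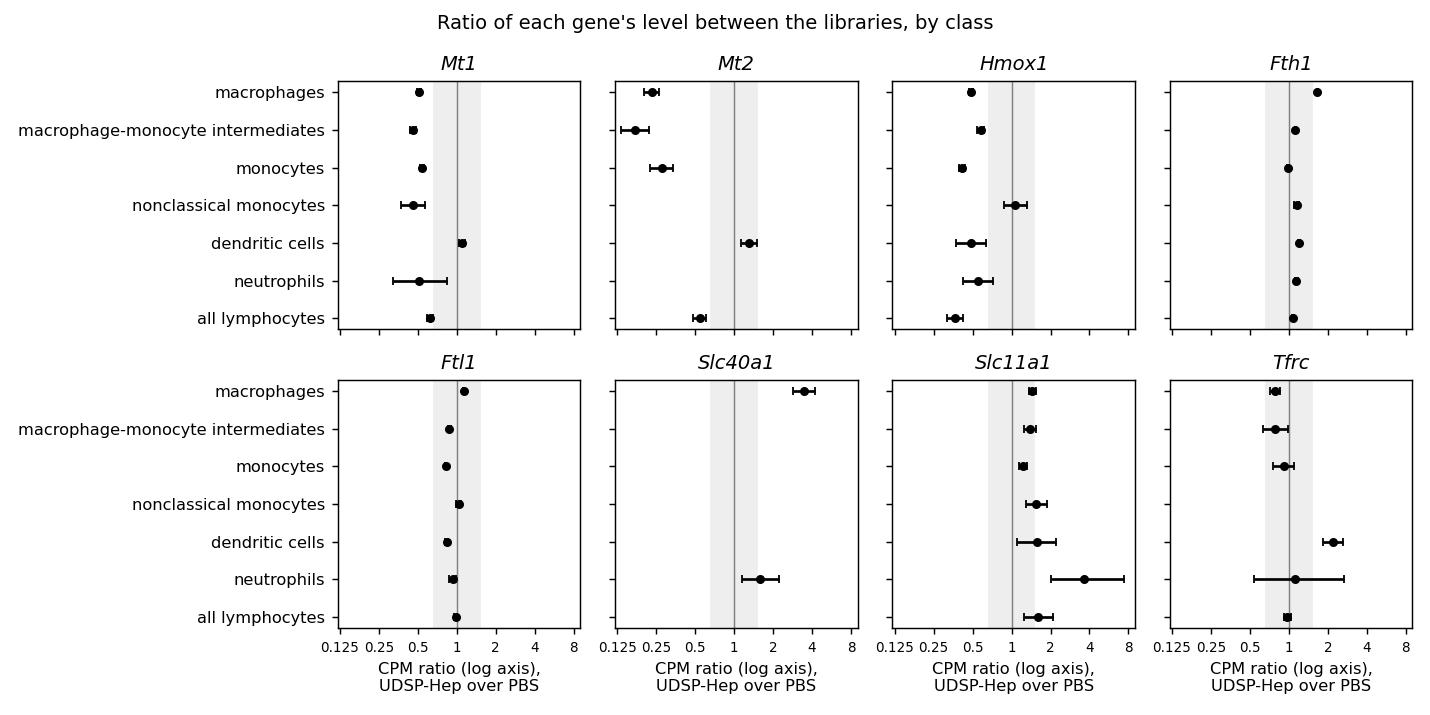
Ratio of CPM, UDSP-Hep over PBS, on a log axis, for the 8 genes (panels) in 7 classes (rows) where the gene had at least 50 UMIs. Bars are 95% intervals for counting error only, and the grey band marks ratios between 0.667 and 1.5. In the macrophage, intermediate and monocyte rows Mt1, Mt2 and Hmox1 lie left of the band.

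The metallothionein genes lie side by side on chromosome 8, Mt2 at chr8:94172664-94173568 and Mt1 at chr8:94179082-94180327, both on the plus strand and 5513 bases apart. The spliced coding sequences are shown because the 2 genes were counted apart and moved by different amounts. They have 183 bases each without the stop codon, of which 145 (79.2%) are the same, and capitals mark the bases that differ.
Mt1: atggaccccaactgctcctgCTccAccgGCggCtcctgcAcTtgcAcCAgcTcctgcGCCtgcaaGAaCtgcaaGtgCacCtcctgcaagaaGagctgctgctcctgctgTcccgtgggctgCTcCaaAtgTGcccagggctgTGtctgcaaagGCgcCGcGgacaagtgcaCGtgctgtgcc
Mt2: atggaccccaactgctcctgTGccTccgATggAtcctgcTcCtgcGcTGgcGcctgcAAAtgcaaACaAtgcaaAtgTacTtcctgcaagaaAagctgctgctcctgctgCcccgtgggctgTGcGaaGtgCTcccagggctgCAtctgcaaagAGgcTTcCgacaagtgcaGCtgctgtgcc

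Mt1 and Mt2 were lower in UDSP-Hep than in PBS in the macrophage, intermediate and monocyte gates, and Mt2 by more. Mt2 did not fall by more in every phagocyte cluster described below. In cluster 7 the ratio was 0.832 (0.794 to 0.872) for Mt1 and 0.991 (0.8005 to 1.23) for Mt2. The libraries differed in their mix of clusters, and its part in the gap between Mt1 and Mt2 was not tested. In macrophages Mt1 was at 515 CPM (95% Poisson interval 501 to 529) in UDSP-Hep and 1006 CPM (988 to 1024) in PBS, a ratio of 0.512 (0.4955 to 0.529). Mt2 was at 27.7 CPM (24.6 to 31.2) in UDSP-Hep and 120 CPM in PBS macrophages, a ratio of 0.231 (0.202 to 0.262). For every 100 Mt1 UMIs, macrophages had 5.38 Mt2 UMIs (4.755 to 6.07) in UDSP-Hep and 11.95 (11.3 to 12.6) in PBS, so the pair did not fall in step. The same was seen in monocytes, with 2.84 Mt2 UMIs per 100 Mt1 UMIs in UDSP-Hep and 5.55 in PBS. Monocytes had 375 CPM of Mt1 in UDSP-Hep and 697 CPM in PBS (ratio 0.537), and 10.6 CPM of Mt2 in UDSP-Hep and 38.7 CPM in PBS (ratio 0.275). The intermediates had 547 and 1187 CPM of Mt1 in UDSP-Hep and PBS (ratio 0.460) and 19.9 and 116 CPM of Mt2 (ratio 0.171). Mt2 overlaps the antisense gene Gm45774, and the strand setting of the counting is unknown here.

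Outside the phagocytes the metallothioneins did not move one way. Of 13 classes with at least 50 Mt1 UMIs, Mt1 was lower in UDSP-Hep in 10, past the fold in 6, and higher past the fold in 1. That 1 class was the cDC1 cells, the dendritic cells that cross-present antigen to CD8 T cells, with 390 CPM in 25 UDSP-Hep cells and 242 CPM in 98 PBS cells (ratio 1.61, 1.34 to 1.92). CD8 T cells had the same summed level of Mt1, 245 CPM in UDSP-Hep and in PBS (ratio 1.00, 0.9235 to 1.09). Their Mt2 was at 84.0 CPM in UDSP-Hep and 83.3 CPM in PBS (ratio 1.01, 0.875 to 1.16). The share of CD8 T cells with an Mt1 UMI was lower in UDSP-Hep. Thinned, it was 5.65% (3.755 to 8.11) in UDSP-Hep and 10.6% (8.21 to 13.4) in PBS, and before thinning 21.3% and 38.3%. For Mt2 the thinned shares were 1.46% (0.591 to 2.99) and 3.65% (2.275 to 5.53), whose intervals overlap. Other CD4 T cells had 150 CPM of Mt1 in UDSP-Hep and 362 CPM in PBS, and 28.1 CPM of Mt2 in UDSP-Hep and 157 CPM in PBS. An Mt1 UMI was found in 18.8% of the 223 UDSP-Hep and 15% of the 100 PBS cells of that class. An Mt2 UMI was found in 4.48% and 3%, so the lower UDSP-Hep sums came with no lower share of cells. In dendritic cells as a whole Mt2 was at 74.6 CPM in UDSP-Hep and 57.1 CPM in PBS (ratio 1.31), but 1 UDSP-Hep cell held 34.0% of the UMIs, and without the highest cell of each library the ratio was 0.934. In neutrophils Mt1 was at 69.3 CPM in UDSP-Hep and 135.5 CPM in PBS (ratio 0.512), and 1 PBS cell held 77.3% of the 22 PBS UMIs. Without the highest cell of each library the neutrophil ratio turned to 1.39 (0.575 to 4.36). In nonclassical monocytes 1 PBS cell held 41.45% of the Mt1 UMIs, and the ratio of 0.460 became 0.7115 without the highest cells.

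The order of Mt1 levels over the 16 classes ran in UDSP-Hep from cDC2 cells (668 CPM) through the intermediates and macrophages, and in PBS from the intermediates (1187 CPM) through macrophages to cDC2 cells (780 CPM). Of the 15 pairs of neighbours in that order, the intervals of 9 overlapped in UDSP-Hep and of 10 in PBS. In UDSP-Hep the intermediates and macrophages, next to each other in the order, were among those that overlapped, while in PBS the first 4 classes, down to monocytes (697 CPM), did not overlap their neighbours. For Mt2 the leading class was mature dendritic cells in UDSP-Hep (122.5 CPM) and other CD4 T cells in PBS (157 CPM). Of the 100 other CD4 T cells in PBS, 3% had an Mt2 UMI. B cells were at the low end, with 2 Mt1 UMIs in UDSP-Hep and 8 in PBS and no Mt2 UMI in either library.

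Within macrophages the median cell had 2.485 Mt1 UMIs per 10000 in UDSP-Hep and 6.22 in PBS, so the lower sum was not carried by a few cells. In UDSP-Hep 50.3% of Mt1 UMIs came from the tenth of macrophages with the most, and in PBS 45.1%. After each cell was thinned to 1000 UMIs, 29.3% of UDSP-Hep macrophages (25.85 to 33.0) and 49.8% of PBS macrophages (46.5 to 53.0) had an Mt1 UMI. Before thinning 82.7% and 87.7% did. The thinned share in B cells, which are not known for high Mt1, was 0 of 64 UDSP-Hep cells (an exact upper bound of 5.601%) and 2 of 45 PBS cells (4.44%). The median depth of macrophages was 12812 UMIs in UDSP-Hep and 10376 UMIs in PBS, and that of B cells 3232 and 2940 UMIs. Across macrophages the levels of Mt1 and Mt2 had a Pearson r of 0.288 in UDSP-Hep (659 cells) and 0.475 in PBS (949 cells), which describes cells that share a library.

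**Figure D3:**
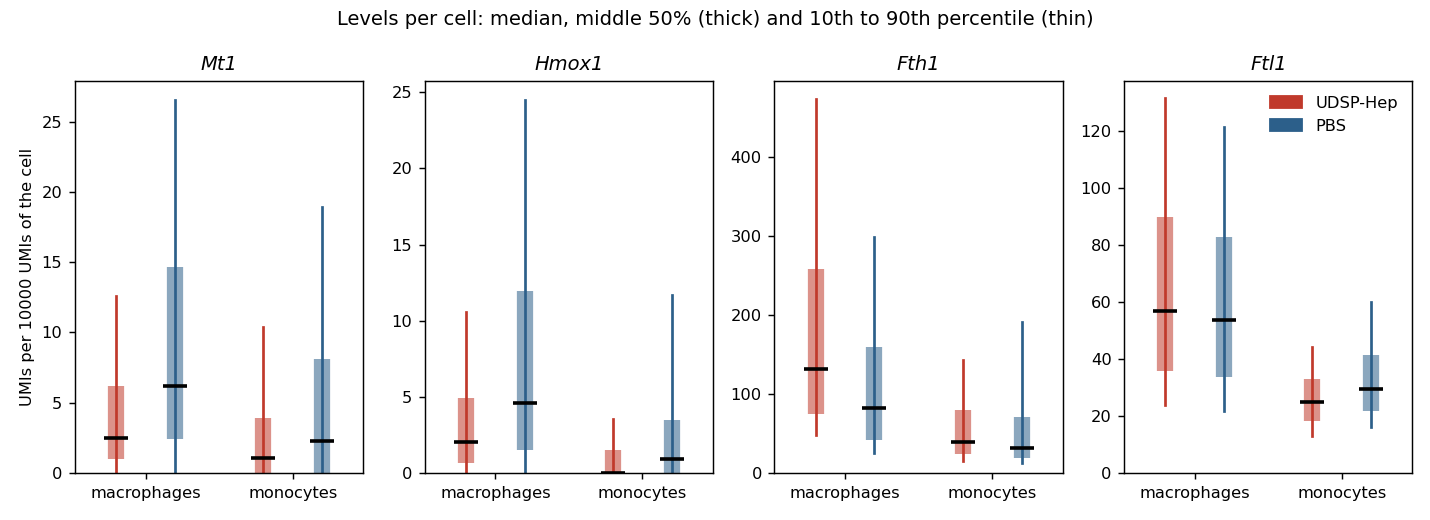
Levels per cell (UMIs per 10000 UMIs of the cell) of Mt1, Hmox1, Fth1 and Ftl1 in macrophages and monocytes, UDSP-Hep left of PBS. Black bars are medians, thick bars the middle 50% and thin lines the 10th to 90th percentile of cells. For Mt1 and Hmox1 the UDSP-Hep bars lie lower in both classes, and for Fth1 they lie higher in macrophages.

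Hmox1, at chr8:75093621-75100589 on the plus strand, encodes the inducible enzyme that opens haem and frees its iron. It was lower in UDSP-Hep than in PBS macrophages, at 391 CPM in UDSP-Hep and 807 CPM in PBS (ratio 0.484, 0.466 to 0.502). In the 131 UDSP-Hep and 394 PBS macrophages with no neutrophil marker UMI it was at 553 CPM in UDSP-Hep and 826 CPM in PBS, a ratio of 0.669, which is not past the fold. Monocytes had 154 CPM in UDSP-Hep and 371 CPM in PBS (ratio 0.415, 0.393 to 0.438), and the intermediates had 364 CPM in UDSP-Hep and 629 CPM in PBS (ratio 0.579). Among the intermediates 1 UDSP-Hep cell held 33.7% of the Hmox1 UMIs. Neutrophils had 236 CPM in UDSP-Hep and 431 CPM in PBS (ratio 0.547, 0.424 to 0.716). Nonclassical monocytes, which patrol vessel walls, had 164 CPM in UDSP-Hep and 154 CPM in PBS (ratio 1.06, 0.867 to 1.31). So the phagocyte classes other than these were lower in UDSP-Hep, and in neutrophils only 70 PBS UMIs stand behind the ratio.

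Macrophages stood first in the order of Hmox1 levels in each library, though in UDSP-Hep their interval (379 to 403 CPM) met that of the intermediates (345 to 384 CPM). The median macrophage had 2.015 Hmox1 UMIs per 10000 in UDSP-Hep and 4.57 in PBS. Thinned to 1000 UMIs, 25.04% of UDSP-Hep and 45.2% of PBS macrophages had an Hmox1 UMI (80.1% and 86.6% before thinning), against 1 of 64 UDSP-Hep and 0 of 45 PBS B cells. Lymphocytes had 18.6 CPM of Hmox1 in UDSP-Hep and 50.6 CPM in PBS (ratio 0.368). In PBS 1 cell held 144 of these UMIs (21.3%), and without the highest cell of each library the ratio was 0.443 (0.382 to 0.513). Without cells of phagocyte clusters 12 and 14, 2754 UDSP-Hep and 1643 PBS lymphocytes remained. Their Hmox1 was at 18.6 CPM in UDSP-Hep and 31.4 CPM in PBS, from 294 and 414 UMIs. NK cells, taken as a class that should lack macrophage RNA, had Hmox1 at 3.55% of the macrophage level in UDSP-Hep and 1.52% in PBS, and the macrophage gene C1qa at 0.708% and 0.3285%. The macrophage genes Lyz2 and C1qa were present in lymphocytes too, and their level differed between the libraries class by class. Lyz2 was at 267 CPM in UDSP-Hep and 120.5 CPM in PBS lymphocytes, and C1qa at 25.8 and 20.9 CPM. In regulatory T cells C1qa was at 10.9 CPM in UDSP-Hep and 31.2 CPM in PBS, beside Hmox1 at 22.3 and 93.5 CPM. The part of macrophage RNA in the lymphocyte values was not tested.

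The heat-shock genes Hspa1a and Hspa1b moved with Mt1 and Hmox1. In macrophages Hspa1a was at 112 CPM in UDSP-Hep and 540 CPM in PBS, and Hspa1b at 246 and 906 CPM. In monocytes Hspa1a was at 81.9 CPM in UDSP-Hep and 1089 CPM in PBS, and Hspa1b at 125.2 and 1580 CPM. In macrophages with no UMI of either (418 UDSP-Hep and 338 PBS cells), Mt1 was at 534 CPM in UDSP-Hep and 902 CPM in PBS, Mt2 at 27.6 and 101.6 CPM, and Hmox1 at 324 and 635 CPM, so all 3 stayed lower. In monocytes with no such UMI Hmox1 was at 144 CPM in UDSP-Hep and 201.5 CPM in PBS, a ratio of 0.715, which is not past the fold, and with phagocyte clusters weighed the same in each library the monocyte ratio was 0.769.

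Fth1 and Ftl1 encode the ferritin chains: the heavy chain oxidises iron and the light chain helps to lay down its mineral core. Fth1, at chr19:9980598-9985098 on the plus strand, was higher in UDSP-Hep macrophages, at 20266 CPM against 12250 CPM in PBS (ratio 1.65, 1.64 to 1.67). Ftl1, at chr7:45457944-45459884 on the minus strand, was at 7411 CPM in UDSP-Hep and 6536 CPM in PBS macrophages (ratio 1.13, 1.12 to 1.145). Per 100 Ftl1 UMIs, macrophages had 273.5 Fth1 UMIs in UDSP-Hep and 187 in PBS, so the heavy chain gained on the light chain. In monocytes the 2 genes stood at 7234 and 2892 CPM in UDSP-Hep and 7404 and 3533 CPM in PBS, ratios of 0.977 for Fth1 and 0.8185 for Ftl1. Intermediates had Fth1 at 14802 CPM in UDSP-Hep and 13253 CPM in PBS (ratio 1.12). With the gates as set, the higher Fth1 was thus past the fold in macrophages and not in the classes beside them. The median monocyte had 39.2 Fth1 UMIs per 10000 in UDSP-Hep and 31.75 in PBS. In monocytes 14 of 15 alternatives stayed within the fold, and the highest ratio among the alternatives was 1.58, past the fold.

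The Fth1 ratio in macrophages was not past the fold where clusters replaced the gates (1.43), where phagocyte clusters were weighed the same in each library (1.41), or without phagocyte clusters 12 and 14 (1.38). The median macrophage had 131 Fth1 UMIs per 10000 in UDSP-Hep and 82.6 in PBS, and 56.85 and 53.9 Ftl1 UMIs. Across macrophages Fth1 and Ftl1 had a Pearson r of 0.645 in UDSP-Hep and 0.560 in PBS. Ftl1 has a near copy, Ftl1-ps1, that was counted apart and had 1.79 UMIs per 100 Ftl1 UMIs in UDSP-Hep and 1.75 in PBS macrophages. It also overlaps Gm22133 and Gm10252, so its level is uncertain to the extent that reads were split between them.

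Neutrophils led the order of Fth1 levels in each library, at 31201 CPM in 680 UDSP-Hep cells and 27306 CPM in 49 PBS cells (ratio 1.14, 1.11 to 1.18). Among lymphoid cells Fth1 differed in direction. It was at 2649 CPM in UDSP-Hep and 1725 CPM in PBS CD8 T cells (ratio 1.54), and at 1846 and 1093 CPM in NK cells (ratio 1.69). The median NK cell had 11.4 Fth1 UMIs per 10000 in UDSP-Hep and 9.54 in PBS. The tenth of NK cells with the most held 52.8% of the Fth1 UMIs in UDSP-Hep and 33.0% in PBS. Lyz2 was at 170 CPM in UDSP-Hep and 53.8 CPM in PBS NK cells, and its part was not tested. In regulatory T cells, which hold back other T cells, Fth1 was at 2431 CPM in UDSP-Hep and 4165 CPM in PBS (ratio 0.584, 0.562 to 0.606). C1qa moved with it, at 50.8 CPM in UDSP-Hep and 16.6 CPM in PBS CD8 T cells and, as given above, lower in UDSP-Hep regulatory T cells, and its part in the Fth1 values was not tested. Basophils had 2549 CPM in UDSP-Hep and 894 CPM in PBS (ratio 2.85). Beside that stood Lyz2 at 193 CPM in UDSP-Hep and 43.7 CPM in PBS basophils. The median basophil had 8.71 Fth1 UMIs per 10000 in UDSP-Hep and 7.78 in PBS. The tenth of basophils with the most held 70.8% of the Fth1 UMIs in UDSP-Hep and 24% in PBS. Of the 16 classes, Fth1 was higher past the fold in 6 and lower past the fold in 2, while Ftl1 was higher past the fold in none and lower past the fold in 2, the B cells and other T cells. In PBS B cells most UMIs of both genes lay in the tenth of cells with the most, as given above. Over all lymphocytes the 2 directions of Fth1 met, at 2217 CPM in UDSP-Hep and 2067 CPM in PBS.

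Slc40a1, at chr1:45908068-45926523 on the minus strand, encodes ferroportin, the known route by which cells export iron. Its level was highest in neutrophils, at 397 CPM (368 to 428) in UDSP-Hep and 252 CPM (181 to 343) in PBS, from 682 and 41 UMIs. The ratio was 1.57 (1.15 to 2.21), but 0.985 after each cell was thinned to 1000 UMIs, and past the fold in 4 of 13 alternatives. Thinned, 26.3% of UDSP-Hep neutrophils and 27.7% of PBS neutrophils had a Slc40a1 UMI (41.3% and 34.7% before thinning), at median depths of 2374.5 and 2253 UMIs. The share of all Slc40a1 UMIs of the library that lay in neutrophils was 47.5% in UDSP-Hep and 18.55% in PBS, where the neutrophils themselves were 9.45% and 0.729% of cells. Over whole libraries Slc40a1 was at 25.7 CPM in UDSP-Hep and 3.34 CPM in PBS, a gap far wider than that between the neutrophils themselves. No B cell had a thinned Slc40a1 UMI in either library.

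In macrophages Slc40a1 was at 42.7 CPM in UDSP-Hep and 12.4 CPM in PBS (430 and 150 UMIs, ratio 3.45, 2.86 to 4.18), and few cells carried it. A Slc40a1 UMI was found in 42 of 659 UDSP-Hep macrophages (6.37%) and in 23 of 949 PBS macrophages (2.42%). Cells with at least 5 UMIs numbered 8 in UDSP-Hep and 7 in PBS and held 88.1% and 85.3% of the UMIs. The highest cell held 194 of the 430 UMIs (45.1%) in UDSP-Hep and 47 of the 150 (31.3%) in PBS. Without the highest cell of each library the level was 23.5 CPM in UDSP-Hep and 8.535 CPM in PBS, a ratio of 2.76 (2.18 to 3.51). Thinned to 1000 UMIs, 1.37% of UDSP-Hep macrophages (0.630 to 2.59) and 0.853% of PBS macrophages (0.369 to 1.67) had a UMI, and these intervals overlap. With so few cells, a counting interval on summed UMIs is too narrow for the spread between cells.

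Macrophages with a Slc40a1 UMI differed from those without in the summed levels of other genes. Vcam1, an adhesion molecule, was at 693 CPM in UDSP-Hep macrophages with a Slc40a1 UMI and 87.8 CPM in those without, and at 987 and 111 CPM in PBS macrophages. Spic, a transcription factor known from iron-recycling macrophages, was at 30.2 CPM with and 2.53 CPM without in UDSP-Hep, and at 98.5 and 4.62 CPM in PBS. The scavenger receptor Cd163 went the other way, at 2.08 CPM with and 78.3 CPM without in UDSP-Hep, and at 4.805 and 154 CPM in PBS. Hmox1 was at 650 CPM with and 363 CPM without in UDSP-Hep, and at 1746 and 773.5 CPM in PBS. The cells with a Slc40a1 UMI were also deeper, with medians of 20995.5 UMIs against 12317 in UDSP-Hep and 15009 against 10262.5 in PBS, and 26 of the 42 UDSP-Hep and 16 of the 23 PBS cells lay in phagocyte cluster 7. These cells were picked by a member of the group, so their other genes are a description.

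Neutrophil markers moved with the macrophage Slc40a1 level. All 9 of 9 neutrophil markers had UMIs in macrophages of each library, with a summed level of 752 CPM in UDSP-Hep and 129 CPM in PBS, and S100a9 stood at 298 and 1.82 CPM. In macrophages with a Slc40a1 UMI S100a9 was at 1590 CPM in UDSP-Hep and 4.805 CPM in PBS. In macrophages with no UMI of any neutrophil marker (131 UDSP-Hep and 394 PBS cells) Slc40a1 was at 41.9 CPM in UDSP-Hep and 11.4 CPM in PBS, from 46 and 43 UMIs. The part of neutrophil RNA in the macrophage Slc40a1 level was not tested. None of the 6 erythroid markers had a UMI in macrophages or neutrophils of either library. In macrophages with no Hspa1a or Hspa1b UMI Slc40a1 was at 23.0 CPM in UDSP-Hep and 2.22 CPM in PBS, from 124 and 8 UMIs (ratio 10.35). Monocytes had 24 Slc40a1 UMIs in UDSP-Hep and 6 in PBS, too few for a call.

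**Figure D4:**
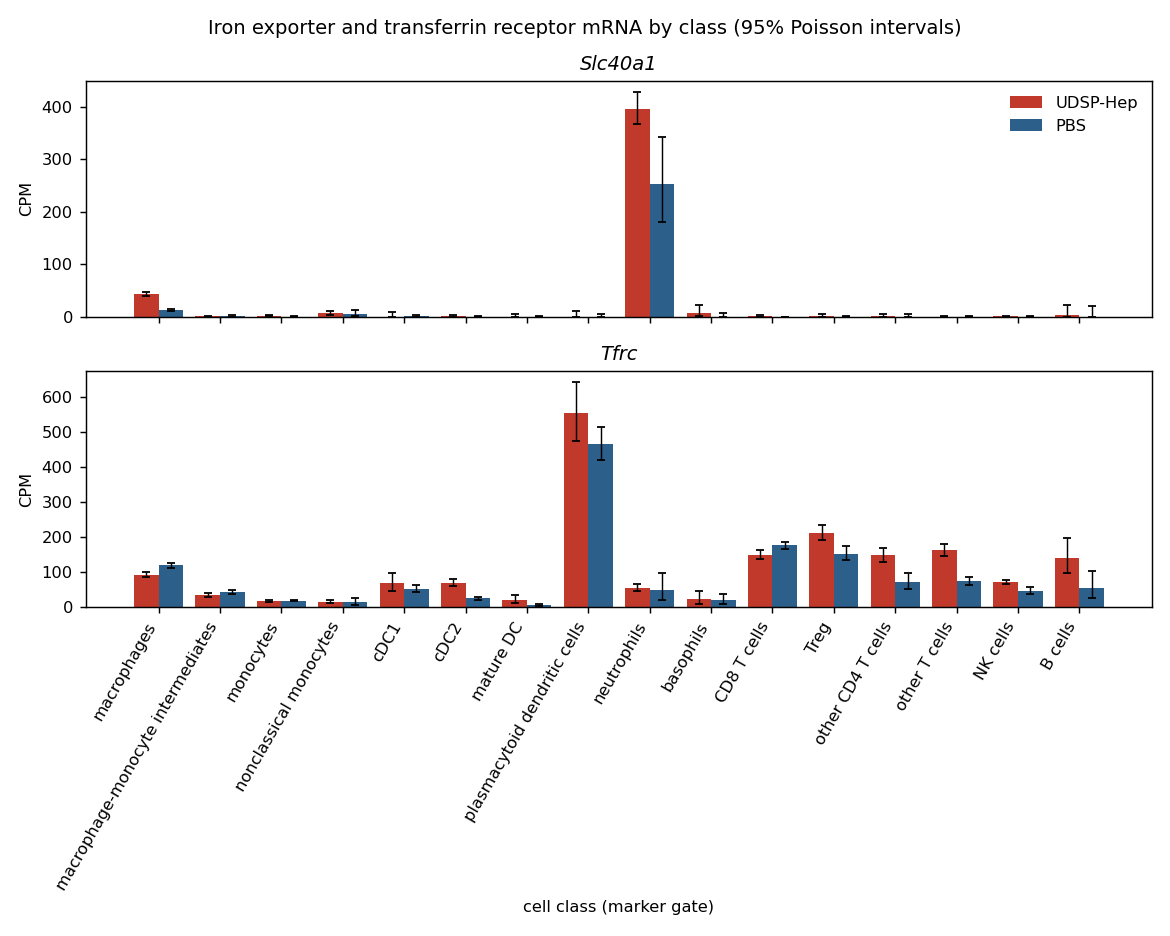
Levels (CPM) of Slc40a1 and Tfrc in 16 cell classes, UDSP-Hep left of PBS, with 95% Poisson intervals for counting error only. Slc40a1 was highest in neutrophils and next in macrophages, and Tfrc was highest in plasmacytoid dendritic cells.

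Slc11a1, at chr1:74375195-74386062 on the plus strand, encodes NRAMP1, which moves iron and manganese across the phagosome membrane. It leaned to the UDSP-Hep side in most myeloid classes. The ratio was within the fold in macrophages, intermediates and monocytes, and past it in nonclassical monocytes, dendritic cells and neutrophils. In dendritic cells it was 1.56, from 56 UMIs in UDSP-Hep and 84 in PBS, and ran from 1.02 to 6.25 over the alternatives. Dendritic cells with no neutrophil marker UMI had 8.47 CPM in UDSP-Hep and 8.33 CPM in PBS, from 7 and 34 UMIs. Macrophages had 213 CPM in UDSP-Hep and 148 CPM in PBS (ratio 1.44, 1.35 to 1.54). The intermediates had 184 CPM in UDSP-Hep and 133 CPM in PBS (ratio 1.39, 1.25 to 1.54), and monocytes had 152 and 124 CPM (ratio 1.23, 1.15 to 1.31). Nonclassical monocytes had the highest value in each library, at 267 CPM in UDSP-Hep and 172 CPM in PBS (ratio 1.56, 1.29 to 1.885), though in UDSP-Hep their interval (247 to 288 CPM) overlapped that of neutrophils (224 to 272 CPM). Neutrophils differed most, at 247 CPM in UDSP-Hep and 67.7 CPM in PBS (ratio 3.65, 2.02 to 7.36), though the PBS value rests on 11 UMIs in 49 cells. In the PBS library the neighbours in the order of levels, nonclassical monocytes through neutrophils, overlapped in their intervals. Over the 8 phagocyte clusters Slc11a1 was higher in UDSP-Hep in 7 and past the fold in 2. In cluster 7 it was at 224 CPM in UDSP-Hep and 233 CPM in PBS (ratio 0.963, 0.892 to 1.04). Without clusters 12 and 14 macrophages had 225 CPM in UDSP-Hep and 190 CPM in PBS.

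Thinned to 1000 UMIs, 15.9% of UDSP-Hep and 10.98% of PBS macrophages had a Slc11a1 UMI (74.7% and 51.1% before thinning), and no B cell did. Lymphocytes had a low level, 11.8 CPM in UDSP-Hep and 7.35 CPM in PBS (ratio 1.61). Within them CD8 T cells had 18.7 and 5.18 CPM, from 68 and 35 UMIs, beside Lyz2 at 458 and 120 CPM, whose part in it was not tested. Of 10 classes with at least 50 Slc11a1 UMIs the level was higher in UDSP-Hep in 8, past the fold in 4, and lower past the fold in none.

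Tfrc, at chr16:32608920-32632794 on the plus strand, encodes the receptor that takes up transferrin-bound iron. It was highest in plasmacytoid dendritic cells, the main producers of type I interferon, at 553.5 CPM in 32 UDSP-Hep cells and 466 CPM in 81 PBS cells (ratio 1.19, 0.988 to 1.42). Regulatory T cells followed in UDSP-Hep at 212 CPM and had 153 CPM in PBS (ratio 1.39, 1.18 to 1.64). CD8 T cells had 150 CPM in UDSP-Hep and 176 CPM in PBS (ratio 0.852, 0.7685 to 0.944). T cells as a whole held 35.0% of the Tfrc UMIs of the UDSP-Hep library and 34.5% of those of the PBS library. Those 2 shares were close although the T cell subsets differed in sign.

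In macrophages Tfrc was at 92.7 CPM in UDSP-Hep and 119 CPM in PBS (ratio 0.782, 0.719 to 0.850). Without phagocyte clusters 12 and 14, which were left out only once their values were known, the level was 70.2 CPM in UDSP-Hep and 40.15 CPM in PBS, a ratio of 1.75, and with clusters weighed the same in each library the ratio was 1.38. Dendritic cells had 59.4 CPM in UDSP-Hep and 27.2 CPM in PBS (ratio 2.18, 1.82 to 2.615). In cDC2 cells, which present antigen to CD4 T cells, the levels were 68.5 CPM in UDSP-Hep and 24.2 CPM in PBS (ratio 2.825, 2.23 to 3.60). Other T cells had 162 CPM in UDSP-Hep and 74.0 CPM in PBS (ratio 2.19), other CD4 T cells 147 and 72.05 CPM (ratio 2.04), and NK cells 70.8 and 45.5 CPM (ratio 1.56). In NK cells Slc11a1 had 44 UMIs in UDSP-Hep and 8 in PBS, and its ratio of 1.75 had an interval, 0.815 to 4.30, that holds 1. Monocytes of either kind were at the low end, at 16.1 CPM in UDSP-Hep and 17.7 CPM in PBS for the monocyte gate.

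The macrophage and monocyte gates held a different mix of cells in each library, so the genes were also read in 8 phagocyte clusters, made without the 8 genes and called by number. Cluster 7 (led by Vcam1, C1qa and S100a9) held 45.1% of UDSP-Hep and 28.6% of PBS macrophages, and cluster 12 (led by Cd163 and Retnla) held 6.37% and 29.7%. Cluster 14 (led by Hspa1a and Hspa1b) held 0.765% of UDSP-Hep and 12.5% of PBS monocytes, and cluster 2 (led by Ly6i and Cxcl10) held 36.2% and 10.9%. Mt1 was lower in UDSP-Hep in 8 of 8 clusters and past the fold in 3. In cluster 0 (led by Gpnmb and Mmp12) Mt1 was at 404 CPM in UDSP-Hep and 1206 CPM in PBS (ratio 0.335), and in cluster 1 (led by Dmkn and Cdh1) at 416 and 821 CPM (ratio 0.5065). In cluster 2 it was at 368 CPM in UDSP-Hep and 384 CPM in PBS, and the ratio of 0.959 had an interval, 0.891 to 1.03, that holds 1. Mt2 was lower in 7 of 7 clusters with enough UMIs and past the fold in 5, with 87.1 CPM in UDSP-Hep and 278 CPM in PBS in cluster 12 and 30.35 and 30.6 CPM in cluster 7. The 5 include cluster 14, with no UMI in 11 UDSP-Hep cells and 68 UMIs in 313 PBS cells (interval of the ratio 0 to 1.49), and cluster 2 (ratio 0.650, 0.366 to 1.18), whose intervals hold 1.

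Within clusters the Hmox1 difference was smaller than in the gates. Hmox1 was lower in UDSP-Hep in 8 of 8 clusters but past the fold in 1, cluster 0, at 581 CPM in UDSP-Hep and 1087 CPM in PBS (ratio 0.535). In cluster 12 it was at 1019 CPM in UDSP-Hep and 1066 CPM in PBS (ratio 0.956, 0.891 to 1.025). Cluster 14 had Hmox1 at 827 CPM in 11 UDSP-Hep cells and 968.5 CPM in 313 PBS cells. With clusters weighed the same in each library the macrophage ratio was 0.5585. Fth1 was higher in UDSP-Hep in 8 of 8 clusters and past the fold in 1, cluster 1, at 5669 CPM in UDSP-Hep and 3585 CPM in PBS (ratio 1.58). Cluster 0 had the highest Fth1, at 33731 CPM in UDSP-Hep and 26143 CPM in PBS (ratio 1.29), and cluster 7 had 14530 and 10628 CPM (ratio 1.37). Slc40a1 was nearly confined to cluster 7 among these 8 clusters, at 69.0 CPM in UDSP-Hep and 23.9 CPM in PBS from 407 and 139 UMIs. Tfrc was highest in cluster 12, at 310 CPM in UDSP-Hep and 250.5 CPM in PBS, with a ratio of 1.24. It was higher past the fold in 3 of 7 clusters with enough UMIs: cluster 0, at 66.4 CPM in UDSP-Hep and 30.5 CPM in PBS (ratio 2.18), cluster 2, at 23.2 and 13.8 CPM (ratio 1.68), and cluster 5, at 14.0 and 8.12 CPM (ratio 1.73, 0.855 to 3.855, from 43 and 10 UMIs).

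**Figure D5:**
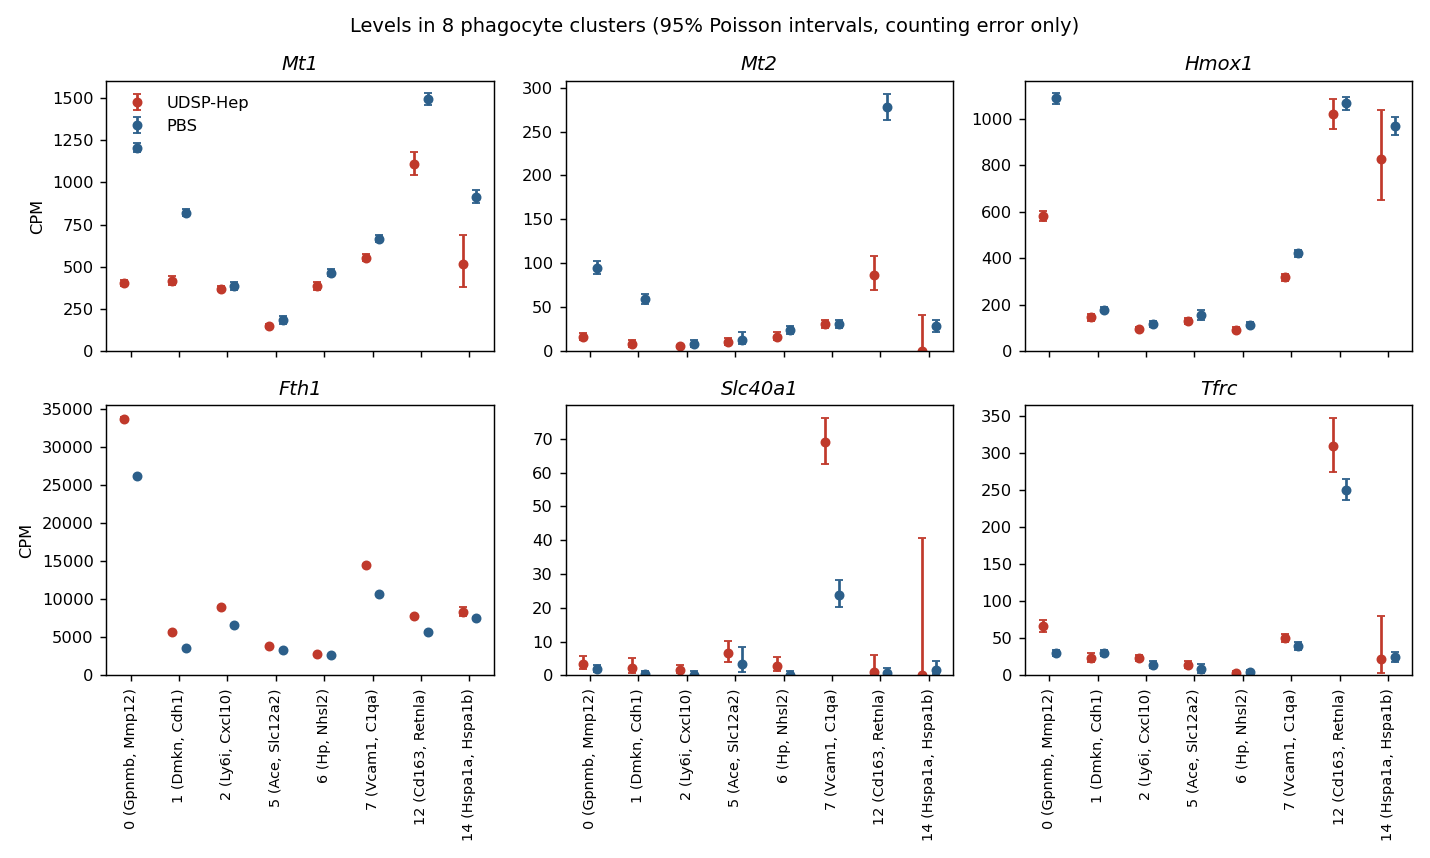
Levels (CPM) of 6 of the genes in 8 phagocyte clusters, named by number and leading genes, UDSP-Hep left of PBS, with 95% Poisson intervals for counting error only. Mt1 lies lower and Fth1 higher in UDSP-Hep in each of the 8 clusters, and Slc40a1 stands out in cluster 7.

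Other genes of the same pathways were read in 6 lists of 62 genes in all, chosen with earlier results of these data known. In macrophages 4 of 8 targets of NRF2, the transcription factor of the oxidant response that also acts on Hmox1 and the ferritin genes, were higher in UDSP-Hep and none was lower, with a median log2 ratio of 0.68, where 10.1% of all genes were higher and 4.48% lower with a median of 0.09. Those were Slc7a11, the cystine importer, at 79.7 CPM in UDSP-Hep and 22.9 CPM in PBS (ratio 3.485), the glutathione reductase Gsr at 129 and 49.1 CPM (ratio 2.62), Srxn1 (ratio 1.85) and Txnrd1 (ratio 1.77). Hmox1 thus went the other way from these 4. Neutrophil markers and the mix of clusters also differed between UDSP-Hep and PBS macrophages, as given above. Their part in the ratios of the NRF2 targets was not tested. The lowest NRF2 targets were Gclc (ratio 1.10) and G6pdx (ratio 1.22). In neutrophils 4 of 8 were higher, Gclm, Slc7a11, Srxn1 and Txnrd1, and none lower, with a median log2 ratio of 0.68, where 30.7% of all genes were higher and 15.2% lower. In monocytes none of the 8 was past the fold, with a median log2 ratio of 0.08, and the difference between the classes was not tested.

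Genes of iron uptake and release were mixed in macrophages, with 1 of 9 higher and 1 lower and a median log2 ratio of 0.01, so that the share higher was near the 10.1% over all genes. The higher gene was Lcn2, a siderophore-binding protein of neutrophils and stressed cells, at 19.98 CPM in UDSP-Hep and 1.49 CPM in PBS (ratio 13.4). Neutrophil markers were also higher in UDSP-Hep macrophages, as given above, and their part in this Lcn2 ratio was not tested. The lower gene was Cd163, the receptor for haemoglobin bound to haptoglobin, at 71.1 CPM in UDSP-Hep and 149 CPM in PBS (ratio 0.477). Slc11a2, which encodes the metal transporter DMT1, had a ratio of 1.45 and the haemochromatosis gene Hfe one of 0.7855. In monocytes 3 of 8 were higher, Lcn2, Steap3 and Trf, and 2 were lower, Cd163 and Slc39a14, where 8.14% of all genes were higher and 3.37% lower. Lcn2 there had 220 UMIs in UDSP-Hep and 94 in PBS (ratio 3.71), beside summed neutrophil markers of 510 and 234.5 CPM, and their part in it was not tested.

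Among 16 haem genes 1 was higher in macrophages, the mitochondrial iron importer Slc25a37 at 34.7 CPM in UDSP-Hep and 20.1 CPM in PBS (ratio 1.73), and 1 was lower, Spic at 5.17 and 7.84 CPM (ratio 0.659). Its relative Slc25a28 had a ratio of 1.45 and the porphyrin transporter Abcb6 one of 0.741. None of 6 genes of iron storage and regulation was past the fold, from Pcbp1 (0.9615) and Pcbp2 (0.972), which deliver iron to ferritin, to Ireb2 (1.22), which encodes an iron regulatory protein, and Fbxl5 (1.46), which marks that protein for degradation. None of 8 zinc genes was past the fold either. The zinc importers Slc39a10 and Slc39a6 had ratios of 0.767 and 0.874, and the zinc exporters Slc30a7 and Slc30a1 had ratios of 1.20 and 1.17. Mtf1, the metal-sensing activator of the metallothionein genes, was at 19.8 CPM in UDSP-Hep and 20.7 CPM in PBS. None of 4 glucocorticoid-response genes was past the fold, with Klf9 at 0.953, Per1 at 1.17, Tsc22d3 at 1.28 and Fkbp5 at 1.44. In monocytes 1 of 15 haem genes was higher, Urod (ratio 1.53), and 1 lower, Spic (ratio 0.501), none of 6 storage genes or 8 zinc genes was past the fold, and 1 of 5 glucocorticoid-response genes was higher, Fkbp5 at 75.4 CPM in UDSP-Hep and 45.5 CPM in PBS (ratio 1.66). Mt3 had 7 UMIs in UDSP-Hep and 5 in PBS macrophages, too few for a ratio, and Mt4 had none.

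Genes whose levels ran most like those of the 8 were looked up over the 32 class-by-library sums, which share their libraries and, in part, their cells' depth. For Mt1 these were Hnrnpll (Pearson r 0.896), Mcub (0.844) and Ms4a6d (0.841). Mt2 ran most like Mt1 (0.770), then S100a4 (0.758) and Il6st (0.731). Hmox1 ran most like Plin2, a coat protein of lipid droplets (0.9065), F10 (0.904) and Fcgr4, an IgG receptor (0.888). For Fth1 the leading genes were Slc15a3 (0.933) and the vacuolar ATPase subunits Atp6v0c and Atp6v1a (0.926 each), and for Ftl1 they were its near copy Ftl1-ps1 (0.957), Gabarap (0.919) and Atp6v0c (0.896). Slc40a1 ran like Cstdc4 (0.968), Il1f9 (0.952) and Fpr1 (0.9503), and Slc11a1 like Fcgr4 (0.954), Klra2 (0.9499) and Pla2g7 (0.933). Tfrc ran most like Fam3c (0.8545), Tbxa2r (0.816) and Galk1 (0.799). Among the 8 genes themselves Hmox1 and Slc11a1 ran most alike (0.852) and Ftl1 and Tfrc least (-0.47).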

How the data were processed

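Single-cell libraries of 1 UDSP-Hep and 1 PBS sample were analysed. Both matrices hold deposited UMI counts, whole numbers that had not been normalized. Cell Ranger 7.0.0, mm10 and Seurat appear in the submitters' processing notes, the last with no role stated. There were 7872 barcodes with 64241224 UMIs for UDSP-Hep and 7379 with 74685827 for PBS. Filters required 200 genes, 500 UMIs and a mitochondrial share below 10% in each cell and removed 197 UDSP-Hep and 245 PBS barcodes. Scrublet's own threshold marked 0.0129% and 0.0138% of barcodes and was judged not to have worked, so the highest scores were removed at 0.8% per 1000 barcodes (481 UDSP-Hep and 417 PBS). Scanpy 1.11.5 and leidenalg 0.10.2 on Python 3.11.15 were used for doublet scores and clusters.

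Each cell was scored on 22 marker lists (mean over markers of scaled log levels, from 0 to 1) and gated at a score of at least 0.15 and a lead of at least 0.1 over the next class. No member is a marker. UMIs were summed per class and library. Intervals are 95%: exact Poisson for CPM, exact conditional binomial for ratios and exact Clopper-Pearson for shares. They cover counting error only. All 8 members were described in every class with at least 25 cells per library. Of each pathway list the 2 highest and 2 lowest ratios in macrophages were named, and the 3 genes most like each member by Pearson r of log2(CPM + 10) among genes with at least 50 CPM in 1 sum. Further genes were named after their values were seen: Vcam1, Spic, Cd163 and S100a9 in cells with Slc40a1, the list genes past the fold, and Mtf1, Mt3 and Mt4. The members and lists were chosen with earlier results of these data known. Gene positions and sequences came from GRCm38 (GENCODE M21). The computation was tested on simulated counts. Alternatives to the scaling, filters, gates, depth and cell selection were tried.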

Additional observations from a re-analysis of the deposited data

Results flagged for a closer look

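Mt1 had opposite directions in different classes, at a ratio of 1.61 in cDC1 cells (25 UDSP-Hep cells) and 0.46 in macrophage-monocyte intermediates. Mt2 was at a ratio of 2.22 in other T cells, from 76 UDSP-Hep and 34 PBS UMIs, and at 0.171 in the intermediates. The share of other T cells with an Mt2 UMI, before thinning, was 3.66% in UDSP-Hep and 3.68% in PBS. Fth1 was at a ratio of 2.85 in basophils and 0.584 in regulatory T cells (Treg). The median basophil differed little in Fth1, at 8.71 UMIs per 10000 in UDSP-Hep and 7.78 in PBS. With 1 library per group these differences between classes were not tested.

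Cells left out of every class because no marker score was high enough (138 UDSP-Hep and 68 PBS cells) also held signal of the 8 genes. Their ratios were 2.54 for Fth1, 2.16 for Ftl1, 50.2 for Slc40a1 (123 UDSP-Hep and 2 PBS UMIs), 6.33 for Slc11a1 and 2.97 for Tfrc. Fth1 was at 63035 CPM in these UDSP-Hep cells and 24785 CPM in the PBS cells, above the level of any class in UDSP-Hep. These cells had a median of 2047 UMIs in UDSP-Hep and 3138.5 UMIs in PBS, and their identity was not tested.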

How the results depend on the processing

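Of 48 ratios of a gene in a class, 24 were past the fold, and 12 of these stayed past it in the same direction under all alternatives that gave a value (up to 15). These include Mt1 and Mt2 in macrophages, intermediates and monocytes, and Slc40a1 in macrophages, at 2.53 to 10.35. In 3 of the 24 the direction turned: Hmox1 in dendritic cells to 1.515 with clusters in place of gates, Slc40a1 in neutrophils to 0.985 with cells thinned to 1000 UMIs, and Mt1 in neutrophils to 1.05 in cells with no Hspa1a or Hspa1b UMI and to 1.39 without the highest cell of each library. The count of genes past the fold was 5 in macrophages, and 3 with a fold of 2. In dendritic cells it was 3, and 0 after thinning, which leaves fewer UMIs. In neutrophils it was 4, and 2 after thinning, 2 with clusters and 1 with a fold of 2. Over all lymphocytes it was 4, and 2 with a stricter gate, 2 in cells with no neutrophil marker UMI, 2 in cells with no Hspa1a or Hspa1b UMI and 1 with a fold of 2. Apart from thinning the cause was not tested. The alternatives on shared barcodes, neutrophil markers, Hspa1a and Hspa1b, clusters 12 and 14 and the highest cells were chosen after seeing the data. No paired analysis was possible because each group is 1 library. The 49 PBS neutrophils and 47 PBS B cells limit what their classes can show.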
